A study of Mus musculus with 6 samples.

Results

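Mammalian mitochondria carry their own ribosome, and the 78 genes described here are named for its proteins. They were taken from a count table of 55487 genes as the protein-coding genes whose symbol is Mrpl or Mrps followed by a digit, with pseudogene symbols left out. Of the 78, 77 had enough reads to be tested, among 13821 genes tested in all. RNA was sequenced from primitive macrophages, the first macrophages of the embryo, which were grown from mouse embryonic stem cells. The stem cells came either from Ts1Cje mice (3 libraries) or from wild-type mice (3 libraries). Ts1Cje is a model of Down syndrome in which the distal segment of chromosome 16 is present in an extra copy joined to chromosome 12. Both groups were differentiated for 12 days with the cytokines M-CSF, SCF and IL-3 and the growth factors VEGF, FGF2, activin A and BMP-4, and the design asks why Ts1Cje embryos have fewer microglia, the brain macrophages that such cells give rise to. The labels do not give the strain, sex or number of stem cell lines, and do not say whether the 3 lots of a genotype are separate lines or separate cultures. P-values therefore measure only the spread between these libraries, which may be technical. Only Mrps6 of the 78 genes lies in the segment with 3 copies in Ts1Cje cells, so the other subunits form its comparison.

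The mitochondrial ribosome translates the few messenger RNAs that the mitochondrial genome encodes, all of them for subunits of the respiratory chain and the ATP synthase. Its ribosomal RNAs come from the mitochondrial genome, whereas every protein is encoded in the nucleus, made in the cytosol and imported. The small subunit (mostly Mrps genes) binds the messenger RNA and decodes it, and the large subunit (mostly Mrpl genes) joins the amino acids. Many of the proteins have counterparts in bacterial ribosomes, and the others are found in mitochondria alone.

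Total counts were 26146044 to 32658148 in Ts1Cje and 25484294 to 26372632 in wild-type libraries. Macrophage markers were high in all 6 libraries, with a summed level of 11 markers of 17064 to 34080 TPM (a level scaled by gene length and to an equal sum in each library) in Ts1Cje and 14527 to 34206 TPM in wild-type libraries. Markers of pluripotent cells summed to 1.41 to 2.26 TPM in Ts1Cje and 0 TPM in wild-type libraries. Wild-type replicate 1 stood apart on principal component 1 (37.8% of the variance), with a score of 88.2 against -38.7 to 18.7 for the other 5 libraries. It also had the highest sum of 4 cardiomyocyte markers, 46.5 TPM against 0.988 to 7.79 TPM elsewhere, and of 4 epithelial markers, 25.9 TPM against 0 to 12.8 TPM. The 6 megakaryocyte and mast markers summed to 622, 188 and 294 TPM in Ts1Cje and 140, 772 and 350 TPM in wild-type libraries. Sums of erythroid, neutrophil, endothelial and mesenchymal markers reached at most 28.1 TPM, and none of them was highest in wild-type replicate 1. In bulk RNA, fewer cells of a type and less RNA per cell cannot be told apart.

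All of the 78 genes but 1 had counts in these macrophages. By the known structure of the mammalian mitochondrial ribosome, 51 of the 78 genes encode proteins of the large subunit, 26 of the small subunit and 1, Mrps36, of neither. Where subunit genes are counted as a whole set, Mrps36 is included. Together they made up 0.249% to 0.281% of all counts in Ts1Cje and 0.227% to 0.277% in wild-type libraries. Their summed level was 4040, 3993 and 3631 TPM in Ts1Cje replicates 1 to 3 and 3286, 3588 and 4026.5 TPM in wild-type replicates 1 to 3, so the groups overlapped. The median level of the large subunit genes was 41.2 to 48.5 TPM in Ts1Cje and 36.6 to 47.5 TPM in wild-type libraries. For the small subunit genes it was 20.9 to 27.4 TPM in Ts1Cje and 23.1 to 27.8 TPM in wild-type libraries, below the large subunit in every library. The exception was Mrpl53, a large subunit gene listed at 0 in all 6 libraries. In the reference annotation 88.0% of its exonic bases are shared with the gene model Gm42688, which had 51, 25 and 13 counts in Ts1Cje and 32, 14 and 14 counts in wild-type replicates 1 to 3. Reads in shared bases may have been assigned elsewhere, so the 0 does not show that Mrpl53 was silent.

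**Figure D1:**
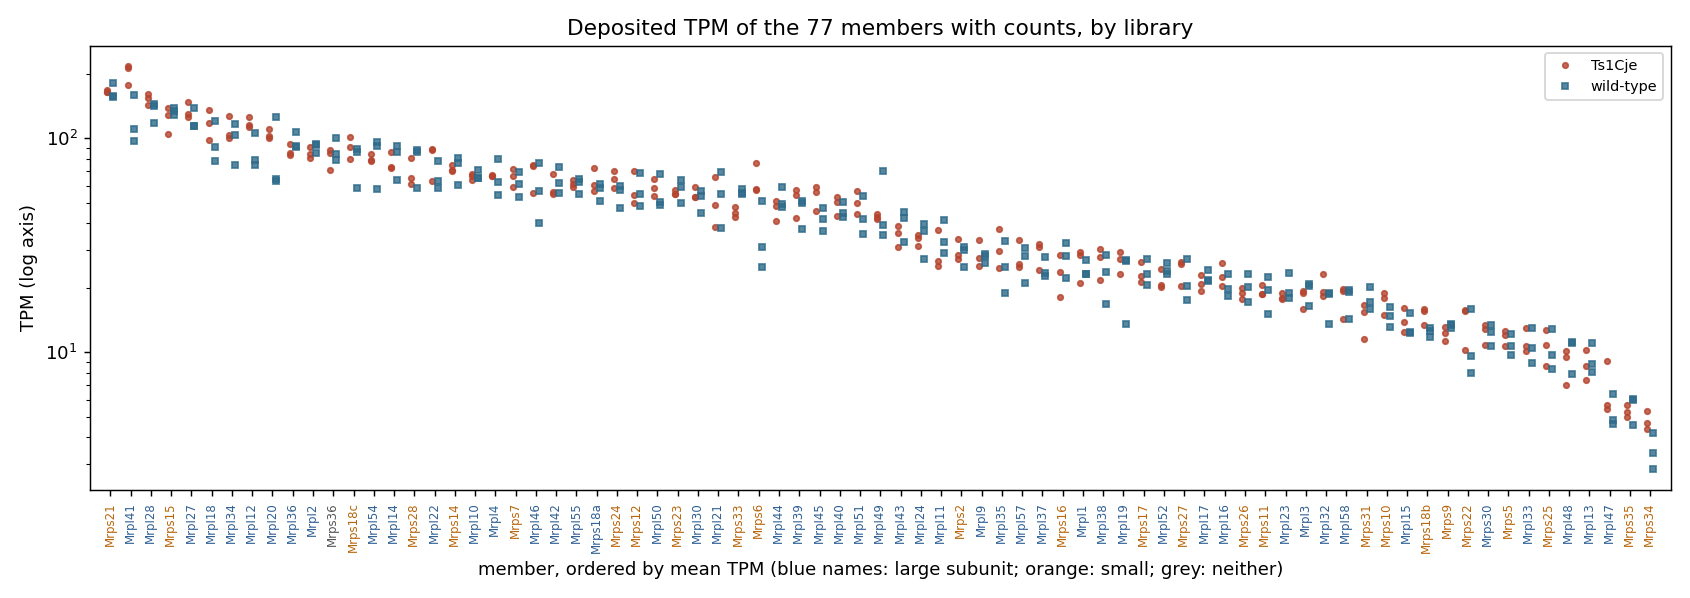
Level of the tested mitochondrial ribosomal protein genes in TPM on a log axis, ordered by mean level, with a point for each Ts1Cje and each wild-type library. Levels run from Mrps21 on the left to Mrps34 on the right, and the genotypes overlap for most genes.

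The plot of levels by gene spanned a wide range. Highest was Mrps21, a small subunit protein shared with bacteria, at 168, 164 and 165 TPM in Ts1Cje and 157, 156 and 182 TPM in wild-type libraries. Mrpl41, a mitochondrion-specific protein of the large subunit, followed with 177, 217 and 212 TPM in Ts1Cje and 110, 97.0 and 159 TPM in wild-type libraries. For Mrps21 the groups overlapped, whereas for Mrpl41 the lowest Ts1Cje library exceeded the highest wild-type library. Mrpl28 had 161, 154 and 142 TPM in Ts1Cje and 117, 142 and 145 TPM in wild-type libraries, which overlap in TPM but not in CPM (log2 fold change 0.18 ± 0.13, SE). Mrps15 had 138, 128 and 104 TPM in Ts1Cje and 139, 129 and 134 TPM in wild-type libraries. Each of these genes overlapped its neighbour in the order over the 6 libraries.

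At the low end stood Mrps34, a mitochondrion-specific small subunit protein, at 4.7, 5.3 and 4.4 TPM in Ts1Cje and 4.2, 3.4 and 2.8 TPM in wild-type libraries. Its groups did not overlap, at a log2 fold change of 0.46 ± 0.35 (SE). The level of Mrps34 is uncertain, since 77.8% of its exonic bases overlap Mapk8ip3 and Nme3. Mrps35, of the small subunit, had 5.2, 5.7 and 5.0 TPM in Ts1Cje and 4.6, 6.0 and 6.0 TPM in wild-type libraries. Mrpl47, which lies near the exit of the peptide tunnel, had 9.1, 5.7 and 5.5 TPM in Ts1Cje and 4.8, 4.6 and 6.4 TPM in wild-type libraries. Both genes overlapped between the genotypes. Mrpl13, of the large subunit, had 10.2, 8.6 and 7.4 TPM in Ts1Cje and 8.1, 11.0 and 8.8 TPM in wild-type libraries. These TPM divide by all annotated exonic bases, 7936 for Mrpl13 and 8631 for Mrps35. Mrpl14, with 949 exonic bases, had 898 counts and 86.6 TPM in Ts1Cje replicate 1, where Mrpl13 had 887 counts. The order of genes by TPM, and the medians of the large and small subunit, therefore depend on these lengths. In all, 33 of the 78 genes share some exonic bases with another gene and 18 share over 10% of them.

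Mrps6 (ENSMUSG00000039680) had the highest log2 fold change of the 77 tested genes. It encodes the counterpart of bacterial S6, which binds on the platform of the small subunit together with S18, and lies at chr16:92058270-92112227 on the plus strand of mm10. Counts were 1276, 770 and 931 in Ts1Cje and 402, 340 and 679 in wild-type replicates 1 to 3. Scaled counts were 37.8, 28.7 and 31.7 CPM (counts scaled to the library total) in Ts1Cje and 16.3, 12.7 and 25.5 CPM in wild-type libraries. The Ts1Cje libraries were all higher than the wild-type libraries, and wild-type replicate 3 was the nearest to them. The log2 fold change was 0.85 ± 0.27 (SE), with a 95% interval of 0.21 to 1.49, which holds 0.585, the value of a 1.5-fold difference, as 3 copies would give against 2 if RNA followed copy number. It did not pass over all genes tested (adjusted p = 0.792, edgeR quasi-likelihood with Benjamini-Hochberg; unadjusted p = 0.0157). Without wild-type replicate 1 the log2 fold change was 0.77. It ranged over single libraries left out between 0.64, without wild-type replicate 2, and 1.18, without wild-type replicate 3.

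**Figure D2:**
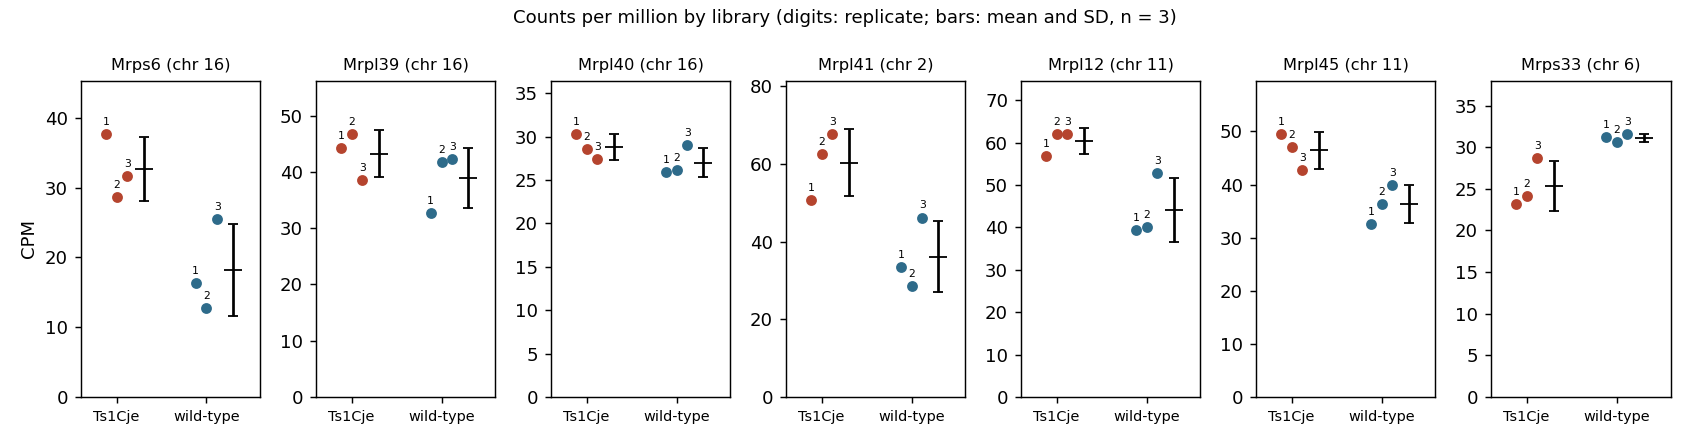
CPM per library (points, digits give the replicate) with mean and SD (bars, n = 3) for Mrps6, Mrpl39, Mrpl40, Mrpl41, Mrpl12, Mrpl45 and Mrps33, Ts1Cje left of wild-type. Mrps6 lies between 28.7 and 37.8 CPM in Ts1Cje and between 12.7 and 25.5 CPM in wild-type libraries, while Mrpl39 and Mrpl40 overlap.

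The difference was as large when Mrps6 was read against the other subunits of the same library. On the log2 CPM scale it stood 0.31, -0.01 and 0.10 from the median of the other 76 tested genes in Ts1Cje replicates 1 to 3, and -0.72, -1.23 and -0.27 from it in wild-type replicates 1 to 3. These values compare libraries and not genes, since CPM are not scaled by gene length. The means were 0.131 ± 0.161 in Ts1Cje and -0.739 ± 0.483 in wild-type libraries (SD, n = 3), a difference of 0.87 or 1.83-fold (exact two-sided permutation p = 0.1, the smallest that 3 against 3 can give). Reads of Mrps6 per 1000 reads of the other subunit genes numbered 14.1, 10.8 and 12.1 in Ts1Cje and 7.01, 5.08 and 9.40 in wild-type libraries, a ratio of means of 1.72. In TPM, which are scaled by length, Mrps6 had 76.2, 57.7 and 57.4 in Ts1Cje and 31.0, 24.9 and 50.8 in wild-type libraries. The median TPM of the other 76 genes was 40.3, 41.7 and 37.3 in Ts1Cje and 35.5, 40.8 and 44.8 in wild-type libraries. Mrps6 was thus above that median in all Ts1Cje libraries and in wild-type replicate 3, and below it in the other two wild-type libraries. By TPM, Mrps6 ranked 18, 29 and 24 of 77 in Ts1Cje libraries and 41, 49 and 36 of 77 in wild-type libraries. Its place among the genes depends on the exonic lengths used for TPM.

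Mrps6 was set beside the genes that share its copy number. Of 72 protein-coding genes listed in the segment (chr16:90226330-97962622), 49 were tested and 45 had a positive log2 fold change, with a median of 0.65. Among these 49, Mrps6 ranked 13 by log2 fold change and 23 by p. The groups stood apart, with Ts1Cje higher, for 31 of the 49 genes (63.3%), Mrps6 among them, against 6.38% of all genes tested. Mrps6 shares 159 exonic bases with Slc5a3, a myo-inositol transporter gene of the same segment, and 305 of its 1533 exonic bases, 19.9%, with any other gene. Slc5a3 had 1716, 1140 and 1198 counts in Ts1Cje and 638, 270 and 906 counts in wild-type libraries, a log2 fold change of 0.94 ± 0.39 (SE). The order of the libraries was the same in both genes within wild-type cells. Whether shared reads contribute to the Mrps6 counts was not tested.

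Mrpl39 and Mrpl40, the other subunit genes of chromosome 16, lie before the segment and are present in the normal number of copies. Mrpl39, of the large subunit, lies at chr16:84717576-84735742 on the minus strand and had 44.2, 46.8 and 38.6 CPM in Ts1Cje and 32.7, 41.8 and 42.3 CPM in wild-type libraries. Its log2 fold change was 0.15 ± 0.17 (SE). Mrpl40, of the large subunit, lies at chr16:18872018-18876862 on the minus strand and had 30.4, 28.6 and 27.4 CPM in Ts1Cje and 25.9, 26.1 and 29.0 CPM in wild-type libraries. Its log2 fold change was 0.09 ± 0.15 (SE). The groups overlapped for both genes, and the 315 tested protein-coding genes of chromosome 16 before the segment had a median of 0.05. The interval of Mrpl39 was -0.24 to 0.54 and that of Mrpl40 -0.25 to 0.44, so that neither holds 0.585. Intervals of some subunit genes on other chromosomes did hold it, among them Mrpl41 (0.24 to 1.24) and Mrpl12 (0.07 to 0.83). Holding 0.585 therefore does not set Mrps6 apart from genes in the normal number of copies.

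The promoters of these 3 genes are shown because they are the subunit genes of chromosome 16, with Mrps6 inside the segment and the others outside it. Each is the RefSeq window of 250 bases before to 50 bases after the start in GRCm38.p6, on the strand of the gene. Capitals mark matches on either strand to the NRF1 motif, CCGGAAG (ETS factors, GABP among them), AAGATGGC (YY1), GGGCGG (SP and KLF factors) and TATAAA. The windows lie at chr16:92058086-92058385 for Mrps6 (plus strand), chr16:84735195-84735494 for Mrpl39 (minus strand) and chr16:18876588-18876887 for Mrpl40 (minus strand).
Mrps6: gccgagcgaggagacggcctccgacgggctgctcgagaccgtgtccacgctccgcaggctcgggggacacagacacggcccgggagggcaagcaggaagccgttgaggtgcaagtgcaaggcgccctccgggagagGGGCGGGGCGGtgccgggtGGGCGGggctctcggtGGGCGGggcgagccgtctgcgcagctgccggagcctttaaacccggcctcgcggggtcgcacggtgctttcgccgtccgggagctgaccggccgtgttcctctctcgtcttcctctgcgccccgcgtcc
Mrpl39: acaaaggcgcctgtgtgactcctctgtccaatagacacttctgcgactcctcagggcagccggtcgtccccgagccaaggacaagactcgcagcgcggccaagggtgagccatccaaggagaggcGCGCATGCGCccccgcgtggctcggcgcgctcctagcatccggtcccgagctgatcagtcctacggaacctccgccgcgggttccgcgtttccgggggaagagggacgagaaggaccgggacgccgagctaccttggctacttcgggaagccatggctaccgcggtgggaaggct
Mrpl40: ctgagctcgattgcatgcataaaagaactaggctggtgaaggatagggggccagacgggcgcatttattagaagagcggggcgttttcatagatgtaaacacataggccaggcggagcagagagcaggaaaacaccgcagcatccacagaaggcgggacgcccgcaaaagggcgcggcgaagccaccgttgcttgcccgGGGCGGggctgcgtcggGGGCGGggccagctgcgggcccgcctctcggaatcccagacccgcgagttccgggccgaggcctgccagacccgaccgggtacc
Mrps6 held 4 matches to GGGCGG, the first pair overlapping, and no match to the other motifs, at 73.7% G and C. Its window also holds the annotated start of Slc5a3, at 92058322 on the same strand, so it is not a promoter of Mrps6 alone. Mrpl39 held 1 match to the NRF1 motif, at 66.3% G and C. Mrpl40 held 2 matches to GGGCGG, at 64.7% G and C. A match is only a run of letters, and no binding was measured.

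Across the set, 69 of the 78 genes had at least 1 RefSeq window, 75 windows in all. The NRF1 motif was in 13 of the 75 windows (17.3%), against 6.4% of 21263 windows of protein-coding genes. CCGGAAG was in 26 (34.7%), against 11.6% of those windows, and AAGATGGC in 12 (16%), against 3.1%. At least 1 of these 3 motifs was in 43 windows (57.3%), against 18.9%. For GGGCGG the share was 52.0%, against 46.2%, and for TATAAA 6.7%, against 12.6%. The median G and C content was 58.7% in the subunit windows and 56.3% in those of protein-coding genes. Mrps6 thus belongs to the windows of the set without the first 3 motifs.

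The other 76 tested subunit genes gave no call between the genotypes, and most had log2 fold changes near 0. Their median log2 fold change was 0.05, with quartiles of -0.09 and 0.21 and a range of -0.30 to 0.74, against a median of -0.01 for all genes tested. Positive values numbered 46 of 76 (60.5%), against 49.2% of all genes. With Mrps6 included, edgeR called 0 of 77 genes at an adjusted p under 0.05, where 1 gene of 13821 (0.00724%) was called in all. DESeq2, limma-voom and limma on log2 TPM also called 0 of 77. At an unadjusted p under 0.05, which 5.79% of all genes had, edgeR had 4 subunit genes higher (5.19%, against 2.99% of all genes) and 0 lower (against 2.80%). By DESeq2 3 of the 77 had an unadjusted p under 0.05, against 7.15% of all genes, and by limma-voom 4, against 6.45%. The groups stood apart for 10 genes, where 12.1% of all genes did. In 8 of these the Ts1Cje libraries were the higher (10.4%, against 6.38%) and in 2 the lower (2.60%, against 5.72%). On simulated data of this comparison edgeR recovered 0 of 67 genes changed 1.5-fold and 6 of 67 changed 2-fold, so a gene that was not called can still differ. The changed genes were drawn from all genes tested. Subunit genes vary less than most of these, and recovery among them alone was not simulated.

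**Figure D3:**
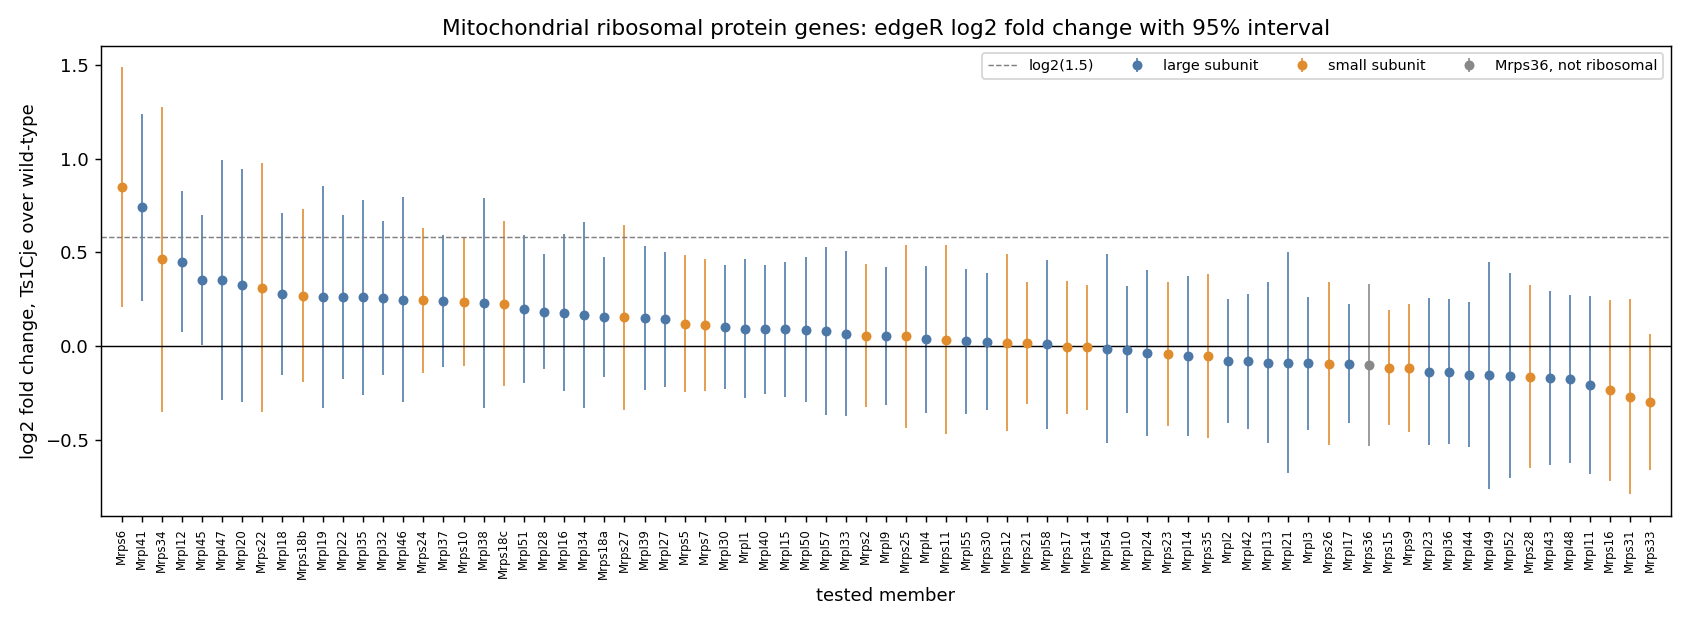
Log2 fold change (Ts1Cje over wild-type) of each tested subunit gene with its 95% interval, in order of size, and a dashed line at 0.585. Mrps6 at 0.85 and Mrpl41 at 0.74 lie apart at the positive end, and Mrps33 at -0.30 is the lowest.

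The medians of the large and small subunits lay close to each other. The 50 tested large subunit genes had a median log2 fold change of 0.08, 32 positive and 18 negative, and the 25 small subunit genes other than Mrps6 a median of 0.02, 14 positive and 11 negative. Genes with a bacterial counterpart, again without Mrps6, had a median of 0.06 over 45 genes, and mitochondrion-specific genes 0.07 over 30 genes. Leaving out wild-type replicate 1 brought the median of the 76 genes to 0.02, and leaving out wild-type replicate 3 brought it to 0.12.

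Beside Mrps6, 3 large subunit genes had an unadjusted p under 0.05. Mrpl41 (chromosome 2) had 50.8, 62.5 and 67.8 CPM in Ts1Cje and 33.5, 28.7 and 46.2 CPM in wild-type libraries, with no overlap. Its log2 fold change was 0.74 ± 0.21 (SE), with a 95% interval of 0.24 to 1.24 (unadjusted p = 0.00948, adjusted p = 0.792 by edgeR). Mrpl41 is in the normal number of copies and had a fold change close to that of Mrps6. Mrpl12, which forms the stalk that recruits translation factors, had 56.8, 62.0 and 62.2 CPM in Ts1Cje and 39.5, 40.1 and 52.8 CPM in wild-type libraries. Its log2 fold change was 0.45 ± 0.16 (SE; unadjusted p = 0.0251, adjusted p = 0.792 by edgeR). Mrpl45, a mitochondrion-specific protein that ties the ribosome to the inner membrane, had 49.6, 47.0 and 42.7 CPM in Ts1Cje and 32.7, 36.4 and 39.9 CPM in wild-type libraries. Its log2 fold change was 0.35 ± 0.15 (SE; unadjusted p = 0.0462, adjusted p = 0.792 by edgeR). In CPM, both had Ts1Cje libraries all above the wild-type libraries. In TPM this held for Mrpl12, while Mrpl45 overlapped, with 45.6 in Ts1Cje replicate 3 and 46.9 in wild-type replicate 3.

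The lowest log2 fold change was that of Mrps33, a mitochondrion-specific protein of the small subunit, at -0.30 ± 0.16 (SE). It had 23.1, 24.1 and 28.7 CPM in Ts1Cje and 31.2, 30.7 and 31.6 CPM in wild-type libraries, without overlap. The other gene below without overlap was Mrps9, a small subunit gene shared with bacteria, at 24.4, 23.0 and 23.5 CPM in Ts1Cje and 26.6, 25 and 25.3 CPM in wild-type libraries, named after its values were seen. The gap between the groups of Mrps9 was narrow, with a log2 fold change of -0.12 ± 0.15 (SE).

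The remaining genes among the 8 with the smallest p other than Mrps6 had log2 fold changes between 0.24 and 0.28. Mrpl18, which binds RNA in the central protuberance of the large subunit, had 61.4, 53.3 and 49.3 CPM in Ts1Cje and 37.5, 42.5 and 55.2 CPM in wild-type libraries. Mrps24, of the small subunit, had 33.4, 27.8 and 33.9 CPM in Ts1Cje and 23.5, 28.0 and 28.7 CPM in wild-type libraries. Mrpl18 and Mrps24 overlapped between the genotypes, with log2 fold changes of 0.28 ± 0.19 and 0.25 ± 0.17 (SE). Mrpl37, a mitochondrion-specific large subunit protein, had 46.3, 44.8 and 39.1 CPM in Ts1Cje and 34.6, 35.0 and 40.8 CPM in wild-type libraries. Mrps10, of the head of the small subunit, had 49.5, 47.1 and 43.7 CPM in Ts1Cje and 40.7, 35.2 and 43.1 CPM in wild-type libraries. Mrps10 did not overlap and Mrpl37 did, both at a log2 fold change of 0.24 ± 0.15 (SE).

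Read against the median of the other subunits in each library, as for Mrps6, 9 genes had every Ts1Cje library above and 2 below, and 66 overlapped. Of all 13821 genes read against the same median, 5.25% lay above and 6.33% below. Mrps6 had the largest difference of the 77, 0.87 on the log2 scale. Among the other genes without overlap Mrpl41 had 0.72, Mrpl12 0.42 and Mrpl45 0.31, and Mrps33, at -0.37, was the lowest of all.

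Paralogs and members outside the ribosome were looked at by name. The 3 genes named for bacterial S18 encode proteins of different places. Mrps18c is the closest counterpart of the S18 that partners S6, and had 35.1, 31.8 and 31.1 CPM in Ts1Cje and 21.6, 30.8 and 31.3 CPM in wild-type libraries. Wild-type replicate 1 was low in this gene and the groups overlapped, with a log2 fold change of 0.23 ± 0.19 (SE). Mrps18b, a second small subunit protein, had 15.6, 16 and 13.4 TPM in Ts1Cje and 11.8, 12.6 and 13 TPM in wild-type libraries, without overlap, at 0.27 ± 0.20. Mrps18a, which sits in the large subunit despite its name, had 60.4, 72.6 and 56.4 TPM in Ts1Cje and 50.8, 58.8 and 60.8 TPM in wild-type libraries, at 0.16 ± 0.14. Against Mrps18c, Mrps6 therefore had the larger fold change, and the difference between these genes was not tested.

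Mrps12, a protein of the decoding centre, had 54.1, 69.9 and 49.9 TPM in Ts1Cje and 48.1, 55.0 and 69.1 TPM in wild-type libraries. Mrpl58, which frees peptides from stalled ribosomes, had 19.2, 19.7 and 14.3 TPM in Ts1Cje and 14.3, 19.4 and 19.1 TPM in wild-type libraries. Mrps30, another protein of the large subunit despite its name, had 12.8, 13.5 and 10.8 TPM in Ts1Cje and 10.7, 13.4 and 12.5 TPM in wild-type libraries. All 3 overlapped, with log2 fold changes of 0.02 ± 0.20, 0.01 ± 0.19 and 0.02 ± 0.16 (SE). Mrps36, which is now known as a subunit of the 2-oxoglutarate dehydrogenase complex, had 84.8, 71.1 and 88.3 TPM in Ts1Cje and 99.8, 84.5 and 79.3 TPM in wild-type libraries. It too overlapped, at -0.10 ± 0.18 (SE).

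Subunit genes varied less between libraries than most genes, and Mrps6 varied most among them over both genotypes together but not within either. The SD of log2 CPM over the 6 libraries had a median of 0.19 for the subunit genes, against 0.35 for all genes tested. It was lower still for genes listed by symbol as cytosolic ribosomal proteins (0.15) and as nuclear complex I subunits (0.13), so a low spread is not particular to the set. Among the mitochondrial ribosomal genes the highest values were 0.60 for Mrps6, 0.49 for Mrpl41 and 0.41 for Mrpl20, a large subunit gene named for this spread. These SDs span both genotypes and so include the difference between them. Within wild-type libraries the SD of Mrps6 was 0.51, below Mrpl20 and Mrpl19 (0.54 each). Within Ts1Cje libraries it was 0.20, below Mrpl47 (0.36) and Mrps31 (0.34). Mrpl20 had 59.4, 54.3 and 61.2 CPM in Ts1Cje and 35.9, 35.5 and 68.3 CPM in wild-type libraries, so wild-type replicate 3 lay above all Ts1Cje libraries and the other wild-type libraries below.

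Wild-type replicate 1 had the lowest CPM of the 6 libraries for 37 of the 77 genes, against 4 to 17 genes in each other library. Relative to the wild-type mean, the median of the 76 genes was 0.05, 0.05 and 0.07 in Ts1Cje and -0.14, -0.02 and 0.11 in wild-type replicates 1 to 3. Cell cycle genes had the same order among wild-type libraries, with 1630, 1314 and 848 TPM summed over 20 genes in Ts1Cje and 445, 1067 and 1420 TPM in wild-type replicates 1 to 3. All 20 had a positive log2 fold change, with a median of 0.38, while these sums overlapped between the genotypes. Macrophage markers ran the other way among wild-type libraries, at 34206, 19567 and 14527 TPM, beside 17064, 23274 and 34080 TPM in Ts1Cje replicates 1 to 3. The part of these levels in the subunit values was not tested.

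**Figure D4:**
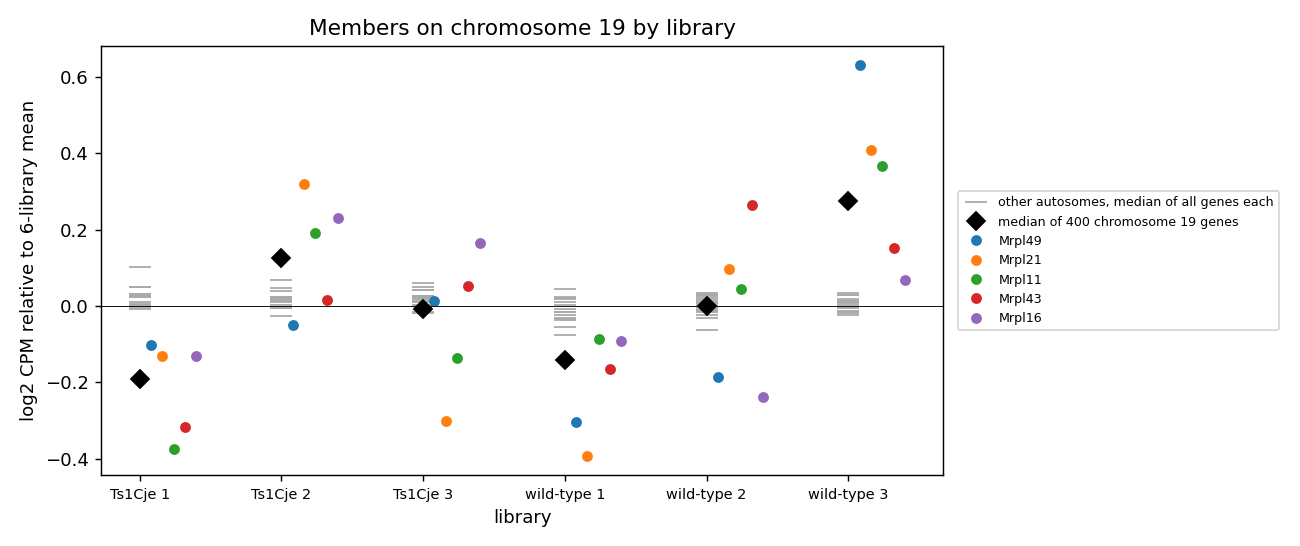
Log2 CPM of the 5 subunit genes on chromosome 19 in each library, relative to the mean of the 6 libraries, beside the median of 400 genes of that chromosome (diamonds) and of each other autosome (grey marks). The chromosome 19 median runs between -0.19 in Ts1Cje replicate 1 and 0.28 in wild-type replicate 3, outside the grey marks in both.

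Subunit genes are scattered over the genome, with 11 on chromosome 11, 8 on chromosome 17 and 7 on chromosome 6. The 5 on chromosome 19 (Mrpl11, Mrpl16, Mrpl21, Mrpl43 and Mrpl49) were looked at because that whole chromosome differed between libraries. Relative to the 6-library mean, the median of 400 chromosome 19 genes was -0.19, 0.12 and -0.01 in Ts1Cje and -0.14, -0.00 and 0.28 in wild-type replicates 1 to 3. The median of the 5 subunit genes was -0.13, 0.19 and 0.01 in Ts1Cje and -0.17, 0.04 and 0.36 in wild-type replicates 1 to 3. Both medians were highest in wild-type replicate 3. Mrpl49, a large subunit gene, had 26.1, 27.0 and 28.2 CPM in Ts1Cje and 22.7, 24.6 and 43.3 CPM in wild-type libraries. The 5 genes had a median log2 fold change of -0.15, and without them the median of the other 71 genes was 0.06.

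Genes that work with the mitochondrial ribosome were read as lists beside its subunits. Of 5 further ribosomal proteins that the symbol rule does not reach, 4 were positive, with a median of 0.18. Gadd45gip1, a large subunit protein, averaged 4.65 ± 1.19 CPM in Ts1Cje and 2.77 ± 0.555 CPM in wild-type libraries (SD, n = 3), without overlap, at 0.75 ± 0.35 (SE). Aurkaip1 and Dap3, small subunit proteins, had 0.18 ± 0.13 and 0.22 ± 0.17. Assembly factors had a median of 0.05 over 26 genes, 15 of them positive. Trub2, a pseudouridine synthase, had 0.50 ± 0.19, Mterf4, which helps to join the subunits, -0.51 ± 0.21 and Fastkd2, an RNA-binding protein of large subunit assembly, 0.28 ± 0.16 (SE). The median of the assembly factors was the same as that of the subunits other than Mrps6.

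Of 20 tested translation factors 13 were positive, with a median of 0.09. Lrpprc, which stabilises mitochondrial messenger RNA, had 0.30 ± 0.15, Mtrf1, a release factor, 0.50 ± 0.27 and Gfm1, an elongation factor, 0.29 ± 0.20 (SE). Mitochondrial aminoacyl-tRNA synthetases had 9 positive and 11 negative values of 20 and a median of -0.04. Wars2, for tryptophan, had -0.66 ± 0.26, Nars2, for asparagine, -0.50 ± 0.26 and Gatc, of the complex that makes glutaminyl-tRNA, -0.24 ± 0.15 (SE). Genes of mitochondrial transcription and RNA processing had 9 positive and 9 negative values, with a median of 0.01. Among them Trmt10c, a tRNA methyltransferase subunit, had 0.29 ± 0.14, Tfam, which packages mitochondrial DNA, -0.48 ± 0.24 and Grsf1, an RNA granule protein, 0.55 ± 0.32 (SE). Regulators of these promoters had a median of -0.08 over 9 genes, with Gabpb1, a GABP subunit, at -0.30 ± 0.15, Myc at 0.69 ± 0.43 and Esrra at 0.29 ± 0.19 (SE).

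RNA of the mitochondrial genome, which the ribosome contains or translates, overlapped between the genotypes as lists. The 2 ribosomal RNAs summed to 3805, 4317 and 4112 TPM in Ts1Cje and 6371, 4844 and 3928 TPM in wild-type replicates 1 to 3, so wild-type replicate 1, which stood apart, was the highest and wild-type replicate 3 lay within the Ts1Cje range. Their log2 fold changes were negative, mt-Rnr1 of the small subunit at -0.52 ± 0.20 and mt-Rnr2 of the large subunit at -0.28 ± 0.24 (SE). The 11 tested protein genes had a median of -0.13, with 3 positive and 8 negative. Relative to the wild-type mean their library medians were -0.16, -0.09 and 0.03 in Ts1Cje and 0.29, -0.35 and 0.07 in wild-type replicates 1 to 3, so wild-type replicate 1 was the highest and wild-type replicate 2 the lowest of all 6. Those with the smallest p were mt-Atp6 at -0.88 ± 0.32, mt-Nd2 at -0.36 ± 0.19 and mt-Co3 at -0.32 ± 0.24 (SE). Mean CPM in Ts1Cje and wild-type libraries were 8.89 and 16.4 for mt-Atp6, 8.2 and 10.3 for mt-Co3, and 400.5 and 515 for mt-Nd2. The wild-type SD of mt-Atp6 was 7.17 CPM (n = 3). The low levels of mt-Atp6 and mt-Co3 limit their fold changes, and whether reads of these genes went uncounted was not tested. Nuclear genes listed by their Nduf symbols as complex I subunits had a median of 0.02 over 36 genes.

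**Figure D5:**
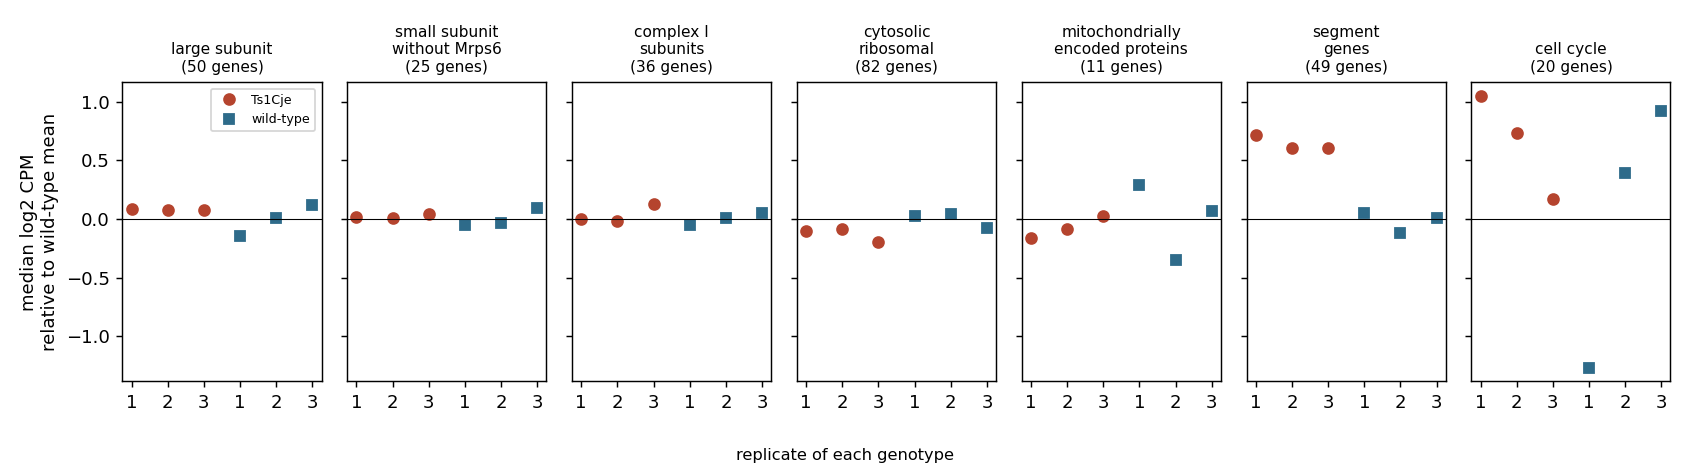
Median log2 CPM of 7 gene lists in each library, relative to the wild-type mean of each gene, by replicate of each genotype. Segment genes lie at 0.60 to 0.71 in the Ts1Cje libraries, while the large and small subunits lie between -0.15 and 0.12 in all 6 libraries.

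Genes with symbols of cytosolic ribosomal proteins, which make the other ribosome of the cell, had a median below 0. The list was taken by symbol alone, so not every gene in it need encode a part of that ribosome. Relative to the wild-type mean their library medians were -0.10, -0.09 and -0.19 in Ts1Cje and 0.03, 0.05 and -0.08 in wild-type replicates 1 to 3, as the plot of list medians by library shows. Their median was -0.12 over 82 tested genes, 15 positive and 67 negative. The groups stood apart with Ts1Cje lower for 17 of them (20.7%, against 5.72% of all genes). The smallest p were those of Rps27 at -0.86 ± 0.28, Rpl22l1 at -0.65 ± 0.23 and Rpl22 at -0.53 ± 0.20 (SE). In this list edgeR and DESeq2 called 0 genes. At an unadjusted p under 0.05 edgeR had 5 of the 82 lower (against 2.80% of all genes) and 0 higher (against 2.99%). In the mitochondrial lists edgeR also called 0 genes. At an unadjusted p under 0.05 it had Trub2 higher and Mterf4 lower of 26 assembly factors. It also had Wars2 lower of 20 synthetases, mt-Atp6 of 11 mitochondrially encoded protein genes and mt-Rnr1 of 2 ribosomal RNAs. DESeq2 called 9 genes of all the lists together, each of them a gene of the segment other than Mrps6.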

How the data were processed

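Total RNA was turned into libraries with a SMART-seq HT Plus kit, per the labels' protocols. FastQC 0.11.7, Trimmomatic 0.38, HISAT2 2.1.0 and featureCounts 1.6.3 and the mm10 build are named, per the submitters' processing notes. Strand and multi-mapping settings are not given in the sources used here. Raw counts per gene and TPM were deposited by the authors. The deposited TPM of the 77 tested subunit genes were the counts divided by the exonic length and scaled per library, to within 0.0017%.

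Genotypes were compared on the deposited counts with edgeR 4.0.16 (R 4.3.3). The design held genotype alone. Low genes were removed by filterByExpr (count minimum 10, total minimum 15), scaled with TMM factors and tested by quasi-likelihood. Adjusted p is Benjamini-Hochberg over 13821 genes, with a threshold of 0.05. The SE is the log2 fold change divided by the root of F, CPM use the TMM factors, and log2 CPM a prior count of 2. A positive value is higher in Ts1Cje. The 3 against 3 comparison of Mrps6 with the other subunits used an exact permutation test. Intervals of log2 fold changes come from the edgeR fit and so reflect the spread between libraries.

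Also tried were upper-quartile and RLE factors, TMM without chromosome 16, other filters, protein-coding genes alone, DESeq2 1.42.0, limma-voom and limma 3.58.1 on log2(TPM + 1) and log2(TPM + 0.1), a replicate block and each library left out. On simulated data with 13621 unchanged genes edgeR made 4 false calls, and it recovered 47 of 66 genes changed 4-fold. Exon overlaps and promoters came from GENCODE M21 and RefSeq. All 78 genes had the same coordinates in GENCODE M21.

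The subunit genes and all lists were chosen with earlier results of these data known. Named were the chromosome 16 members, the 8 others with the smallest p, the 4 highest and 4 lowest by TPM, Mrpl12, Mrps12, Mrpl58, Mrps36, Mrps30, the Mrps18 genes, members below the filter, and up to 3 genes with the smallest p of each list. Others were named after their values were seen.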

Additional observations from a re-analysis of the deposited data

How the results depend on the processing

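Over 18 alternatives, 24 named subunit genes gave 432 values, of which 411 kept their direction and side of the threshold, 21 changed sign and 0 passed the threshold. Mrps6 stayed positive, between 0.82 and 0.91 apart from the values without a library, with an adjusted p of 0.359 (DESeq2) to 0.932. With upper-quartile factors the log2 fold changes of Mrps21, Mrps12, Mrpl58 and Mrps30 were -0.0162, -0.0133, -0.0234 and -0.01. Mrpl58 was at -0.0018 with a minimum of 50 counts and at -0.0073 with protein-coding genes alone. With each library left out, values ran between -0.0386 and 0.0831 for Mrps21, -0.106 and 0.161 for Mrps12, -0.117 and 0.0935 for Mrpl58, -0.228 and 0.0125 for Mrps36, -0.057 and 0.0859 for Mrps30, -0.182 and 0.0378 for Mrpl13 and -0.164 and 0.007 for Mrps35. These genes lie near 0, so their sign is not known, and the cause of each change was not tested.

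Groups did not overlap for 10 of 77 subunit genes, for 6 (7.79%) on each of the 3 TPM settings, against 8.3% to 10.9% of all genes there, and for 14 to 28 (18.2% to 36.4%) without a library, against 18.6% to 35.6% of all genes. The count was 19 (24.7%) without Ts1Cje replicate 3 or wild-type replicate 1, against 21.3% and 19.8% of all genes, and 28 without wild-type replicate 3, against 35.6%. Genes called in the other lists were 0, with 1 (Cbr1) without the filter and 9 with DESeq2, all in the segment. Among all genes DESeq2 called 56 and edgeR 3 without the filter and 6 without wild-type replicate 3. The median of the subunits without Mrps6 was 0.02 to 0.06 over the alternatives that keep all libraries. Leaving out chromosome 19, chosen after seeing the data, gave 0.06.

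The labels do not say whether libraries of equal replicate number form pairs. Deviations from the genotype mean correlated at -0.18, -0.05 and -0.06 for equal numbers, and between -0.11 and 0.17 for unequal ones. With 3 libraries in each group, these values cannot show whether the libraries are paired. With the replicate block Mrps6 had 0.90 (adjusted p = 0.932, edgeR), the median of the others was 0.06, and 0 subunit genes were called. Depth limits the genes with the fewest counts most, such as Mrps34, with 95 to 105 counts in Ts1Cje and 51 to 73 in wild-type libraries.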
